A study of Mus musculus with 50 samples.

Results

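Transcript levels and open chromatin were examined for 8 nuclear receptor genes of the HNF4, PPAR and RXR families in mouse kidney, liver and skin fibroblasts. The genes were Hnf4a, Hnf4g, Ppara, Ppard, Pparg, Rxra, Rxrb and Rxrg. They were chosen by name, and all 8 were among the 24984 genes counted in every library. The series held 50 samples of C57BL/6 mice in 14 groups. RNA-seq of kidney and liver compared untreated young mice of 2.5 months with untreated old mice of 23 to 25 months (n = 4 libraries in each of the 4 groups), and ATAC-seq of the same tissues and ages mapped open chromatin (n = 3 in each of the 4 groups). The tissues of the age comparison came from female mice according to the methods of the study. A second set of RNA-seq libraries compared DMSO with an agent labelled 3C in kidney and in liver of mice aged 20 to 21 months (n = 4 in each of the 4 groups) and in skin fibroblasts labelled P9 mice (n = 3 in each of the 2 groups). The labels did not say what 3C is, nor its dose, route or duration. The labels numbered the libraries within each group and did not say whether each came from a separate animal or culture, so the p-values measure the spread between these libraries, which may be partly technical.

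HNF4 proteins are orphan nuclear receptors that bind DNA as homodimers. HNF4-alpha is a central regulator of hepatocyte genes and is also made in the proximal tubule of the kidney, whereas HNF4-gamma is its less widely expressed relative. PPARs are receptors for fatty acids and their derivatives. PPAR-alpha drives fatty acid oxidation and ketone body synthesis in liver and in proximal tubule, PPAR-delta is present in most tissues, and PPAR-gamma is the main regulator of adipocyte differentiation. RXRs are the common partners: PPARs, and the receptors for retinoic acid, bile acids, oxysterols, thyroid hormone and vitamin D, bind DNA as dimers with an RXR. PPAR and RXR dimers, and HNF4 homodimers, both recognise direct repeats of the hexamer AGGTCA with a single base between them, called DR1.

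Total gene counts were between 14238228 and 43704147 per RNA library, and reads outside annotated genes or ambiguous between genes were 8.1% to 21.3%. The tissue labels were checked against marker genes. Markers of hepatocytes summed to between 95225.9 and 320620.8 normalised CPM (counts-per-million) in liver libraries, and the 5 markers of the distal nephron were at 0 in young and old liver, at most 0.635 CPM in DMSO liver and up to 8.56 CPM, in replicate 4, in 3C liver. Markers of the proximal tubule summed to between 4248.4 and 9723.5 CPM in kidney, and markers of fibroblasts to between 7327.3 and 11044.8 CPM in the cultured cells. Some libraries stood apart. Replicate 2 of old kidney had 2567.3 CPM of hepatocyte markers, where the other old kidney libraries had 69.8 to 112.5 CPM. Replicate 1 of 3C kidney and replicate 1 of 3C liver had clock gene levels far from those of the other libraries of the DMSO and 3C set, as given below with Ppard, and replicate 1 of old kidney and replicate 1 of old liver stood apart in some clock genes within their groups. Replicate 2 of 3C liver had 116.5 CPM of proximal tubule markers, the most of its group, though old liver reached 120.3 CPM. In 3C liver the mean of this sum was 62.8 CPM, and Slc13a3 alone had a mean of 56.5 CPM. The 22 libraries of the DMSO and 3C set listed 0 reads as multiply mapped, whereas the 16 young and old libraries listed some, so levels were not tested between the 2 sets.

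Open chromatin at Hnf4a differed in place between kidney and liver, and 4 sequences that bear on this and on Hnf4g are shown here because the ATAC-seq results below turn on them. Hnf4a is transcribed from an upstream promoter, called P2, and a downstream promoter, called P1. The first pair of sequences are the P2 and P1 promoters as given by RefSeq on GRCm38.p6, from 250 bases before to 50 bases after each start site. The second pair are windows of 300 bases, centred on the summit of regions with a peak in all 6 kidney libraries and in none of the 6 liver libraries, read from GRCm38. All are on the plus strand, and capitals mark a motif match.
Hnf4a P2, chr2:163506607-163506906: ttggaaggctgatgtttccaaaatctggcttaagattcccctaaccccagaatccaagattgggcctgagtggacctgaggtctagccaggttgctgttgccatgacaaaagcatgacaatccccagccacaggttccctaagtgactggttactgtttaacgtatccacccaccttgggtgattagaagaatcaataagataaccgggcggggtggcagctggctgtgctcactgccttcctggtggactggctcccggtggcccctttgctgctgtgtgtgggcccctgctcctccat
Hnf4a P1, chr2:163546905-163547204: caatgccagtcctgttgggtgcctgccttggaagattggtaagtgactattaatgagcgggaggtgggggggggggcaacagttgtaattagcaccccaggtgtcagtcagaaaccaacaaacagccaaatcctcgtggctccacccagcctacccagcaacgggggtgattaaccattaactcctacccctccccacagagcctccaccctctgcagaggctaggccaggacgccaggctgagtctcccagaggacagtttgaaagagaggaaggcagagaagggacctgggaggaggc
Hnf4a kidney region, chr2:163560305-163560604: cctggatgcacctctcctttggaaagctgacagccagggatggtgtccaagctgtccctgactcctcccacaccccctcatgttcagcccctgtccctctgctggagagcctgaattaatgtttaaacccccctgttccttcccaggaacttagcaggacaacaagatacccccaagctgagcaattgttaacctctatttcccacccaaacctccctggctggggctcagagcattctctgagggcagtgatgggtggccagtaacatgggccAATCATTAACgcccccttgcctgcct
Hnf4g kidney region, chr3:3581734-3582033: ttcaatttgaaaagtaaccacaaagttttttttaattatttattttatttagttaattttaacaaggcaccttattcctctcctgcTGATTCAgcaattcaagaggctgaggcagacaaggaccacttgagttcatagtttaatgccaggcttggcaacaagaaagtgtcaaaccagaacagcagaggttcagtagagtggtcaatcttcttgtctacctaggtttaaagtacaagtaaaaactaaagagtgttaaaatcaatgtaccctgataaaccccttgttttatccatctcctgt
The capitals in the Hnf4a kidney region are a match, on the minus strand, to GTTAATNATT, the site of HNF1 factors, and those in the Hnf4g kidney region are a match to TGANTCA, the site of AP-1. The 5 motifs searched on both strands were the HNF1 and AP-1 sites, DR1 spelled AGGTCANAGGTCA, a relaxed DR1 spelled AGGNCANAGGNCA, which contains the strict form, and the HNF4 site CAAAGTCCA. None of them was found in the 13 RefSeq promoters of the members, which covered Hnf4a, Ppara, Ppard, Pparg, Rxra, Rxrb and Rxrg. Among 32817 RefSeq promoters of the same length, 0.0396% held the strict DR1, 0.381% the relaxed DR1, 0.475% the HNF4 site, 0.399% the HNF1 site and 7.81% the AP-1 site. Among the 115836 peaks of replicate 1 of young kidney, in windows of 300 bases, 1.56% held the HNF1 site and 10.2% the AP-1 site. Both Hnf4a promoters were poor in CpG, with 4 CpG each in 300 bases, whereas the first RefSeq promoter of Rxra held 55 and that of Ppara held 30.

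The 8 genes lay on the plus strand of GRCm38, and no exon of theirs was overlapped by another gene. Hnf4a (ENSMUSG00000017950.16) spans chr2:163506808-163572910, and Hnf4g (ENSMUSG00000017688.14) spans chr3:3508030-3658052. Ppara (ENSMUSG00000022383.13) spans chr15:85734983-85802819, Ppard (ENSMUSG00000002250.16) chr17:28232700-28301474, and Pparg (ENSMUSG00000000440.12) chr6:115360951-115490399. Rxra (ENSMUSG00000015846.14) spans chr2:27676440-27762957, Rxrb (ENSMUSG00000039656.17) chr17:34031812-34038399, and Rxrg (ENSMUSG00000015843.10) chr1:167598384-167639623.

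Hnf4a was the most abundant of the 8 transcripts per length in every kidney and liver group. On the scale of normalised CPM per kilobase of exon, its level was 155.4 ± 13.4 (SD, n = 4) in young kidney and 221.3 ± 22.4 (n = 4) in young liver. In young kidney Ppara came next at 32.2 ± 5.35 CPM per kilobase, then Rxra at 21.7 ± 0.732, Rxrb at 12.9 ± 2.05, Ppard at 4.34 ± 0.374, Hnf4g at 3.11 ± 0.575, Pparg at 1.69 ± 0.372 and Rxrg at 0.443 ± 0.126. Young liver had a different order after Hnf4a: Rxra at 103.5 ± 16.9 CPM per kilobase, Ppara at 79.3 ± 18.2, Rxrb at 16.3 ± 1.83, Pparg at 4.64 ± 1.47, Rxrg at 4.23 ± 0.531, Ppard at 2.67 ± 0.735 and Hnf4g at 0.109 ± 0.0587. In old kidney Rxra, at 18.3 ± 2.1 CPM per kilobase, and Ppara, at 17.9 ± 3.45, overlapped.

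Within each family the make-up therefore depended on the tissue. Of the summed PPAR level per length, Ppara made up 84.1% ± 1.83 (SD, n = 4) in young kidney and 91.2% ± 2.48 (n = 4) in young liver, whereas Ppard made up 89.2% ± 1.72 (n = 3) in DMSO fibroblasts. Of the summed RXR level, Rxra made up 62.0% ± 3.79 in young kidney and 83.1% ± 3.45 in young liver, and Rxrb made up 36.7% ± 4.16 and 13.4% ± 2.84. Hnf4g was a small part of the HNF4 level, at 1.96% ± 0.291 in young kidney and 0.0513% ± 0.0318 in young liver. Fibroblasts had no count of Hnf4a or Hnf4g in any of the 6 libraries.

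**Figure D1:**
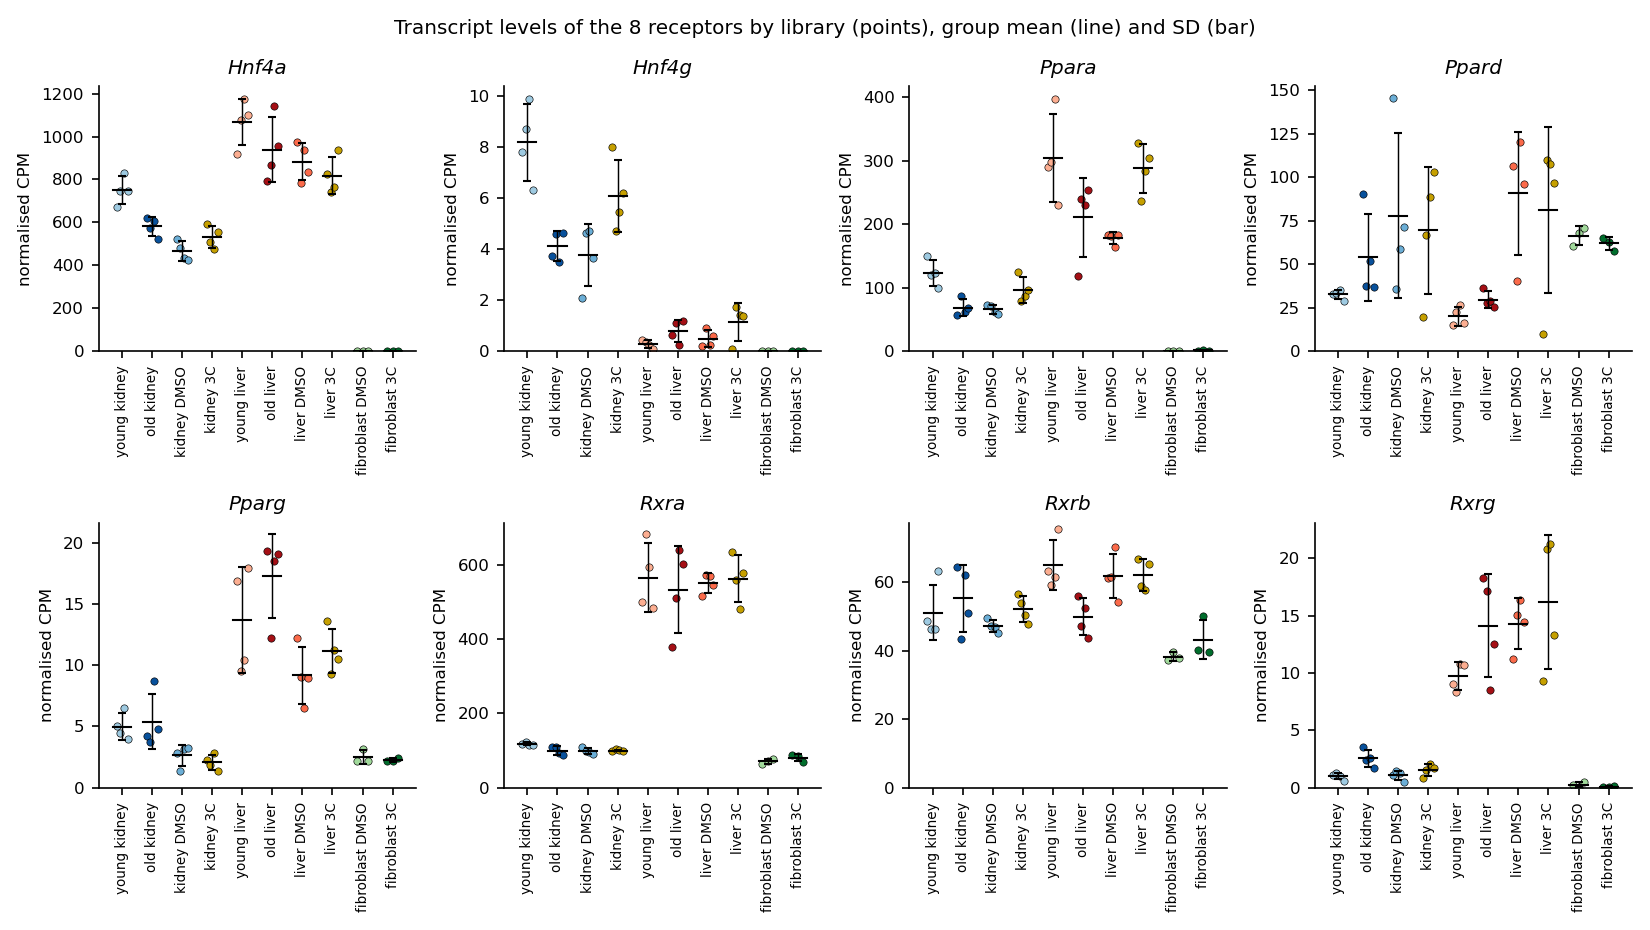
Level of each of the 8 genes in the 10 RNA groups, as normalised CPM on linear axes from 0, a panel per gene; points are libraries, horizontal lines are group means and bars are SD (n = 4, or 3 for fibroblasts). Hnf4a lies above 400 CPM in every kidney and liver library and has no count in fibroblasts, Rxra is higher in every liver library than in any kidney library, and Ppard spreads widely in the DMSO and 3C groups of both tissues.

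The first comparison asked how the 8 genes differed between old and young kidney. Hnf4g and Ppara were lower and Rxrg was higher in old kidney by edgeR's quasi-likelihood test with Benjamini-Hochberg adjustment over all genes. These 3 of 8 genes stand beside 11.5% of the 14495 genes tested, with 8.15% higher and 3.36% lower. The groups did not overlap for 6 of the 8 genes (Hnf4a, Hnf4g, Ppara, Ppard, Rxra and Rxrg), beside 19.7% of the genes tested. With a fold change of more than 2 asked as well, only Rxrg passed, beside 6.08% of genes, and DESeq2 called 5 of the 8, with Hnf4a and Ppard added, beside 19.0%. The median log2 fold change of the 8 genes was −0.01, and that of all genes was 0.02. The share of higher calls among all calls depended on scaling: it was 70.8% as reported, 84.8% with scaling by the total count and 60.3% with offsets for length and GC content.

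Ppara, the receptor behind fatty acid oxidation, was measured at 150.3, 120.8, 123.2 and 100.3 normalised CPM in replicates 1 to 4 of young kidney, and at 57.1, 87.4, 62.3 and 67.5 CPM in old kidney. Every old library was below every young library. Old against young, the difference was −0.78 ± 0.17 on the log2 scale (SE, n = 4 against 4, adjusted p = 0.0177 by edgeR). Without replicate 2 of old kidney, the library with hepatocyte markers, it was −0.94 ± 0.15 (adjusted p = 0.0038).

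Hnf4g had 7.79, 8.72, 9.89 and 6.31 CPM in young kidney and 3.73, 4.59, 3.51 and 4.62 CPM in old kidney. Its old libraries all lay below the young ones, and the level was far below that of Hnf4a at both ages. This gave a log2 fold change of −0.91 ± 0.20 (SE, n = 4 against 4, edgeR adjusted p = 0.017).

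Rxrg, the RXR best known from muscle and brain, moved the other way. Its level was 1.14, 1.3, 0.995 and 0.626 CPM in young kidney and 3.56, 2.4, 2.59 and 1.74 CPM in old kidney. The lowest old library was above the highest young library, at levels of a few CPM. Its log2 fold change was 1.38 ± 0.31 (SE, n = 4 against 4, edgeR adjusted p = 0.0207).

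The other 5 genes did not pass the test, though with offsets for length and GC content Hnf4a (−0.37 ± 0.09, edgeR adjusted p = 0.0257) and Ppard (0.85 ± 0.25, adjusted p = 0.0465) did. Hnf4a was at 673.3, 747.5, 831.9 and 748.3 CPM in young kidney and at 620.9, 576.2, 606.0 and 523.3 CPM in old kidney. The groups did not overlap, and the log2 fold change of −0.31 ± 0.11 (SE) had an edgeR adjusted p of 0.0952. Ppard was at 32.6, 33.7, 35.4 and 28.8 CPM in young kidney and at 90.1, 37.5, 51.9 and 36.9 CPM in old kidney. All old libraries were above the young ones, replicate 1 of old kidney most of all, and the log2 fold change of 0.78 ± 0.25 (SE) had an edgeR adjusted p of 0.07. That library stood apart in some clock genes, chosen after the values were seen: it had Nr1d2 at 18.2 CPM against 27.6 to 50.3 CPM in the other old kidney libraries, Nfil3 at 33.1 against 14.8 to 15.8 CPM, and Tef at 64.5 against 85.9 to 93.4 CPM. Dbp was at 3.24 against 5.34 to 8.34 CPM and Arntl at 20.8 against 15.7 to 17.7 CPM. Without it the log2 fold change of Ppard was 0.44 ± 0.14 (edgeR adjusted p = 0.0892), and the part of the clock genes was not tested. For Rxra the log2 fold change was −0.18 ± 0.11 (adjusted p = 0.28), Rxrb one of 0.17 ± 0.15 (adjusted p = 0.474) and Pparg one of 0.17 ± 0.28 (adjusted p = 0.71), all by edgeR.

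**Figure D2:**
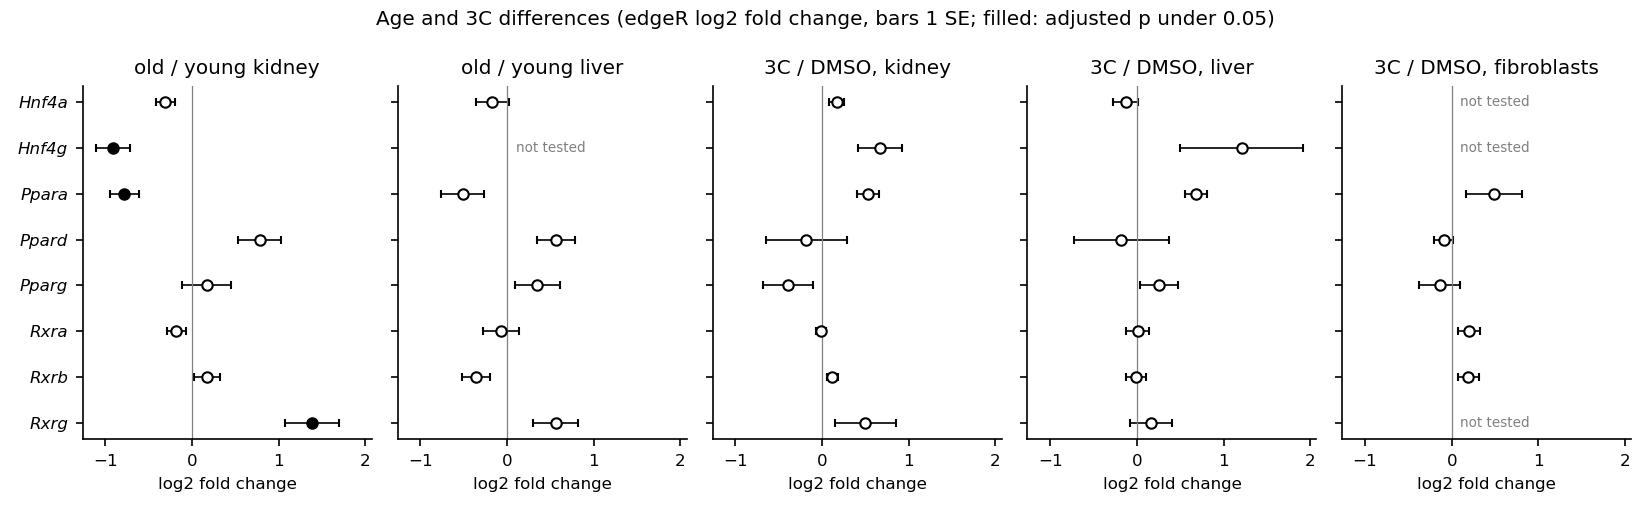
Log2 fold change of the 8 genes from edgeR, old against young and 3C against DMSO, a panel per comparison; bars are 1 SE, and points are filled where the adjusted p is under 0.05. The filled points are Ppara (−0.78), Hnf4g (−0.91) and Rxrg (1.38) in old against young kidney, and Ppara is at 0.53 and 0.68 for 3C in kidney and liver with open points.

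Cell type markers moved with age in kidney too. The 6 proximal tubule markers, all detected, summed to 7536.9 to 9723.5 CPM in young kidney and to 4248.4 to 5423.1 CPM in old kidney. The 5 macrophage markers summed to 81.7 to 92.6 CPM in young kidney and to 366.4 to 736.3 CPM in old kidney. The 4 markers of B and plasma cells summed to 3.92 to 7.61 CPM in young kidney and to 241.8 to 359.9 CPM in old kidney, and the 3 T cell markers to 0.748 to 1.79 CPM and to 7.95 to 12.6 CPM. No marker of these lists was at 0 in either group. Their part in the differences of Ppara, Hnf4g and Rxrg was not tested, and in bulk tissue fewer cells of a type and less RNA per cell cannot be told apart. The calls also rested on single libraries: without replicate 3 of young kidney none of the 8 passed, with edgeR adjusted p of 0.0543 for Hnf4g, 0.0525 for Ppara and 0.0639 for Rxrg. Hnf4g also missed the threshold without replicate 2 of young kidney (0.0582), Ppara without replicate 4 of old kidney (0.0549) or with scaling by the total count (0.0528), and Rxrg without replicate 1 of old kidney (0.0577) or with offsets for length and GC content (0.0565), while Ppard passed without replicate 2 of old kidney (log2 fold change 0.90 ± 0.24, adjusted p = 0.0242). The fold changes kept their direction in each of these fits.

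In liver, none of the 7 genes tested passed between old and young mice, beside 2.46% of the 12537 genes tested by edgeR. DESeq2 called none of the 8 either, beside 6.18% of its genes. At an unadjusted p under 0.05, edgeR gave 2 of the 7 genes, Ppard and Rxrb, beside 14.7% of all genes. Hnf4g had 1 to 6 counts per young liver library and 3 to 20 per old liver library and was too low to be tested by edgeR.

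Ppara was at 289.9, 298.7, 398.0 and 229.9 CPM in young liver and at 118.6, 239.5, 230.2 and 254.7 CPM in old liver. The groups overlapped, and replicate 1 of old liver was the lowest of the 8 libraries. Its log2 fold change was −0.51 ± 0.25 (SE, n = 4 against 4, edgeR adjusted p = 0.399), and −0.31 ± 0.19 without that library (adjusted p = 0.385).

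Ppard was at 15, 22.4, 26.7 and 16.1 CPM in young liver and at 36.5, 27.6, 28.6 and 25.3 CPM in old liver. Only replicate 3 of young liver reached into the old range. This was a log2 fold change of 0.57 ± 0.22 (SE, unadjusted p = 0.0249, edgeR adjusted p = 0.243). Replicate 1 of old liver, which had the lowest Ppara and the highest Ppard, also stood apart from the other old liver libraries in some clock genes, chosen after the values were seen, and not in all. In it Nr1d1 was at 16.1 CPM against 66.5 to 103.7 CPM, Nr1d2 at 17.1 against 54.8 to 72.6 CPM, and Tef at 20.7 against 43.4 to 70.1 CPM. Dbp, at 0.794 CPM, lay within the 0.504 to 4.02 CPM of the others, and Arntl, at 38.5 CPM, was close to their 42 to 49.6 CPM. Without that library Ppard was at 0.46 ± 0.21 (unadjusted p = 0.0474, edgeR adjusted p = 0.247), and the part of the clock genes was not tested.

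Rxrb was at 63.4, 59.2, 61.6 and 75.5 CPM in young liver and at 55.9, 47.2, 52.5 and 43.8 CPM in old liver. It was the only member whose liver groups did not overlap, beside 10.1% of the genes tested, and its log2 fold change was −0.36 ± 0.16 (unadjusted p = 0.0448, edgeR adjusted p = 0.323). The values of the remaining genes were −0.17 ± 0.19 for Hnf4a, 0.35 ± 0.26 for Pparg, −0.07 ± 0.21 for Rxra and 0.56 ± 0.26 for Rxrg, with edgeR adjusted p of 0.819, 0.639, 0.958 and 0.345. The 5 macrophage markers summed to 410.8 to 586.9 CPM in young liver and to 730.5 to 1452.2 CPM in old liver. The 4 markers of B and plasma cells went from 3.84 to 4.91 CPM in young liver to 24.7 to 109.7 CPM in old liver, and the 6 proximal tubule markers from 26.5 to 36.7 CPM to 46.7 to 120.3 CPM. The part of these markers in the values of the members was not tested.

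Whether age acted differently in the 2 tissues was tested by the interaction term, coded as the effect in kidney minus the effect in liver. Hnf4g, which was too low to be tested in liver alone, entered this fit through its kidney counts. Its level in liver was 0.451, 0.35, 0.261 and 0.0878 CPM in young mice and 0.617, 1.12, 0.239 and 1.19 CPM in old mice. Its interaction was −2.43 ± 0.57 (SE, edgeR adjusted p = 0.0407), beside 1.72% of the 15036 genes called, and rested on these few liver counts, so no difference of its age effect between the tissues is drawn from it. It missed the threshold when any of 13 of the 16 libraries was left out, at edgeR adjusted p of 0.0521 to 0.0985, with the replicate number as a block (−2.36 ± 0.58, adjusted p = 0.0948) and with scaling by the total count (−2.41 ± 0.63, adjusted p = 0.0827). Among all calls of this test, 49.2% were higher as reported and 61.6% with scaling by the total count. The other 7 genes did not pass, and the interaction was 0.50 ± 0.21 for Rxrb (adjusted p = 0.301), 0.77 ± 0.40 for Rxrg (0.413), −0.32 ± 0.32 for Ppara (0.703), and −0.22 to 0.18 for the rest.

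The next comparisons asked how 3C differed from DMSO in kidney and liver of 20 to 21 month old mice. No gene passed the adjusted test by edgeR in either tissue, 0.0% of 14974 genes in kidney and 0.0% of 13042 in liver, so no member did. At an unadjusted p under 0.05 there were 11.9% of genes in kidney and 3.34% in liver, with 4.84% and 1.91% higher. DESeq2 called 1.68% of genes in kidney and 0.0388% in liver, and Ppara was called in both tissues, as the only member.

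Ppara was at 72.5, 71.3, 61.6 and 58.1 CPM in DMSO kidney and at 125.3, 78.7, 86.3 and 96.9 CPM in 3C kidney. In liver it was at 183.8, 181.8, 163.7 and 183.2 CPM with DMSO and at 327.8, 237.2, 283.8 and 304.4 CPM with 3C. In both tissues every 3C library was above every DMSO library, a separation seen in either direction for 7.17% of genes in kidney and 2.28% in liver. Its log2 fold change was 0.53 ± 0.13 in kidney (SE, n = 4 against 4, unadjusted p = 0.00163, edgeR adjusted p = 0.202) and 0.68 ± 0.13 in liver (unadjusted p = 2.66e-04, edgeR adjusted p = 1). DESeq2 gave the same fold changes with adjusted p of 0.0104 in kidney and 0.00364 in liver. Some cell type markers also separated. The 5 fibroblast markers summed to 250.2 to 318.7 CPM in DMSO kidney and to 140.5 to 217.5 CPM in 3C kidney, and in liver the 3 T cell markers summed to 3.99 to 5.73 and 1.96 to 2.76 CPM and the 3 smooth muscle markers to 16.9 to 22.8 and 12 to 15.2 CPM. The proximal tubule markers overlapped, at 5152.7 to 6244.2 CPM in DMSO kidney and 5666.2 to 6793.8 CPM in 3C kidney. The part of these markers in the Ppara values was not tested.

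Replicate 1 of 3C was the highest Ppara library in both tissues. Without it the log2 fold change was 0.39 ± 0.09 in kidney (unadjusted p = 0.00135, edgeR adjusted p = 0.2) and 0.60 ± 0.13 in liver (unadjusted p = 6.26e-04, edgeR adjusted p = 0.999). The difference of the effect between the tissues was −0.13 ± 0.19 (edgeR adjusted p = 1), in a test that called 0.0% of 15526 genes and gave 3.57% at an unadjusted p under 0.05.

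Ppard, the PPAR of most tissues, was widely spread in this set. It was at 145.6, 35.5, 59.0 and 71.3 CPM in DMSO kidney and at 19.8, 66.6, 88.5 and 103.0 CPM in 3C kidney. In liver it was at 106.4, 40.1, 120.0 and 96.0 CPM with DMSO and at 9.87, 109.8, 107.4 and 96.7 CPM with 3C. The groups overlapped in both tissues, and the lowest library of each was replicate 1 of 3C. The log2 fold change was −0.18 ± 0.47 in kidney (edgeR adjusted p = 0.927) and −0.18 ± 0.55 in liver (adjusted p = 1), and it was 0.13 ± 0.36 and 0.18 ± 0.28 without replicate 1 of 3C.

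Clock genes stood apart in the same libraries; they were chosen after the Ppard values were seen. Dbp, an output gene of the circadian clock, was at 94.1, 1.6, 3.22 and 5.89 CPM in 3C kidney and at 179.9, 0.875, 0.251 and 0.652 CPM in 3C liver. Arntl, which encodes the clock activator BMAL and peaks at the opposite phase, was at 1.86, 26.7, 25.3 and 18.9 CPM in 3C kidney and at 1.7, 48.8, 46.5 and 45.2 CPM in 3C liver. In both tissues replicate 1 of 3C thus had the highest Dbp, the lowest Arntl and the lowest Ppard. Among the DMSO libraries Dbp was highest in replicate 2 of kidney (12.7 CPM, the others 2.02 to 4.76) and in replicate 2 of liver (4.31 CPM, the others 0.725 to 1.26), and these 2 libraries had the lowest Ppard of their groups. The order was the other way in replicates 2 to 4 of 3C kidney, where Ppard, at 66.6, 88.5 and 103.0 CPM, rose with Dbp. The labels gave neither the times of tissue collection nor whether same-numbered kidney and liver libraries came from the same mouse. The part of the clock phase in the Ppard values was not tested.

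**Figure D3:**
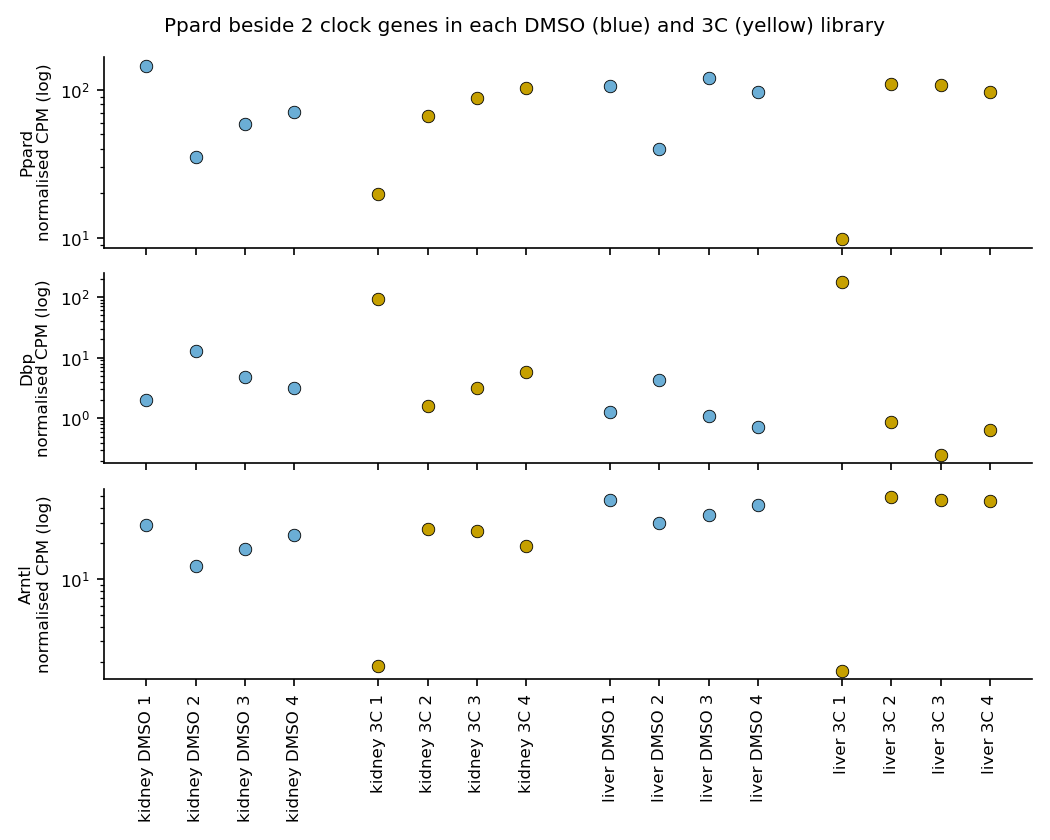
Ppard, Dbp and Arntl as normalised CPM on log axes, a panel per gene, in each of the 16 kidney and liver libraries of DMSO (blue) and 3C (yellow) mice; each point is a library. Replicate 1 of 3C kidney and of 3C liver have Dbp at 94.1 and 179.9 CPM, the highest, and Ppard at 19.8 and 9.87 CPM, the lowest.

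The remaining members did not separate in either tissue. In kidney the log2 fold change of 3C against DMSO was 0.17 ± 0.09 for Hnf4a, 0.67 ± 0.25 for Hnf4g, −0.39 ± 0.29 for Pparg, −0.01 ± 0.06 for Rxra, 0.12 ± 0.06 for Rxrb and 0.50 ± 0.35 for Rxrg, with edgeR adjusted p of 0.332 to 0.978. In liver it was −0.13 ± 0.14 for Hnf4a, 1.21 ± 0.71 for Hnf4g, 0.26 ± 0.22 for Pparg, 0.01 ± 0.13 for Rxra, −0.01 ± 0.12 for Rxrb and 0.16 ± 0.24 for Rxrg, all with an edgeR adjusted p of 1. Hnf4g was at 2.09, 4.62, 4.72 and 3.65 CPM in DMSO kidney and at 7.98, 4.7, 5.46 and 6.21 CPM in 3C kidney, so that only replicate 2 of 3C lay within the DMSO range.

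Skin fibroblasts expressed 5 of the 8 genes at a level that could be tested. None passed between 3C and DMSO, beside 4.22% of the 13449 genes tested by edgeR. Of those calls 57.7% were higher as reported and 69.3% with scaling by the total count. At an unadjusted p under 0.05 there was no member, beside 20.2% of genes. Ppard was at 60.4, 67.7 and 70.9 CPM with DMSO and at 65.3, 63.0 and 57.8 CPM with 3C, and the log2 fold change was −0.09 ± 0.11 (SE, n = 3 against 3, edgeR adjusted p = 0.707). Rxra was at 63.2, 72.7 and 77.0 CPM with DMSO and at 88.5, 84.3 and 69.7 CPM with 3C, a log2 fold change of 0.20 ± 0.13 (adjusted p = 0.428). Both sets of groups overlapped.

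Ppara was low in the fibroblasts, at 0.942, 0.838 and 0.718 CPM with DMSO and at 1.07, 1.39 and 1.02 CPM with 3C, and Rxrb was at 37.2, 39.6 and 38.0 CPM and at 40.1, 50 and 39.7 CPM. For these 2 genes every 3C library was above every DMSO library, a separation found for 25.6% of the genes tested in either direction. Their log2 fold changes were 0.49 ± 0.32 (adjusted p = 0.439) and 0.19 ± 0.12 (adjusted p = 0.418) by edgeR. Pparg was at −0.14 ± 0.24 (adjusted p = 0.794). Rxrg, at 0.0429 to 0.479 CPM, was too low to be tested. The macrophage markers in these cultures summed to 190.7 to 251.8 CPM with DMSO and to 70.9 to 109.9 CPM with 3C. The 3 smooth muscle markers went from 1165.7 to 1393.2 CPM with DMSO to 702.1 to 1010.0 CPM with 3C, and the 5 skeletal muscle markers, of which Ckm was at 0 in all libraries and Myh4 in those of DMSO, from 19.3 to 26.2 CPM to 8.53 to 16.6 CPM. The fibroblast markers overlapped, at 7999.3 to 11044.8 and 7327.3 to 10661.1 CPM. The part of these markers in the values was not tested.

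Kidney and liver differed for most of the 8 genes. In young mice all 8 passed, beside 65.4% of the 14057 genes tested, with Hnf4g and Ppard higher in kidney, beside 35.1%, and the other 6 higher in liver, beside 30.2%. A fold change of more than 2 was met by 5 of the 8, beside 42.6%, and the groups did not overlap for 7, all but Rxrb, beside 60.5%. In old mice 7 of 8 passed, beside 54.9%, and in DMSO mice 7 of 8, beside 71.9%. Each of these counts includes Hnf4g, which entered through its kidney counts alone. These 3 comparisons share no library.

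The HNF4 genes were split between the tissues. Hnf4a was at 673.3 to 831.9 CPM in young kidney and at 918.6, 1078.2, 1175.7 and 1100.7 CPM in young liver. The liver libraries were all higher, and the log2 fold change of kidney against liver was −0.52 ± 0.14 (SE, edgeR adjusted p = 0.00649). It was −0.69 ± 0.23 in old mice (adjusted p = 0.0276) and −0.89 ± 0.12 in DMSO mice (adjusted p = 3.98e-05). Hnf4g had 1 to 20 counts per liver library in these groups and entered the fits through its kidney counts, so only its levels are given. It was at 6.31 to 9.89 CPM in young, 3.51 to 4.62 CPM in old and 2.09 to 4.72 CPM in DMSO kidney, and at 0.0878 to 0.451, 0.239 to 1.19 and 0.199 to 0.919 CPM in the liver of these mice. Every kidney library was above every liver library of its setting. In old mice Hnf4a missed the threshold without replicates 1, 3 or 4 of old kidney or 3 or 4 of old liver, each left out alone, at adjusted p of 0.0545 to 0.0826.

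Ppara and Pparg were higher in liver in all 3 settings. Kidney against liver, the log2 fold change of Ppara was −1.31 ± 0.18 in young, −1.62 ± 0.26 in old and −1.41 ± 0.10 in DMSO mice, and that of Pparg was −1.47 ± 0.26, −1.68 ± 0.30 and −1.76 ± 0.27. All of these passed by edgeR. Pparg was at 5.02, 4.47, 6.5 and 3.95 CPM in young kidney and at 16.9, 9.53, 10.4 and 17.9 CPM in young liver. Ppard was higher in kidney in young mice, at 0.69 ± 0.18 (adjusted p = 0.00574), and in old mice, at 0.87 ± 0.29 (adjusted p = 0.0268), and not in DMSO mice, at −0.19 ± 0.39 (adjusted p = 0.677). In old mice it missed the threshold without replicate 1 of old kidney, the library with the highest Ppard (log2 fold change 0.53 ± 0.20, adjusted p = 0.0545), and without replicates 2, 3 or 4 of old liver (adjusted p = 0.0611 to 0.0735).

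Rxrg and Rxra were higher in liver in all 3 settings. Rxrg was at 9.03, 8.34, 10.8 and 10.7 CPM in young liver against 0.626 to 1.3 CPM in young kidney, and the log2 fold change was −3.24 ± 0.27 in young, −2.47 ± 0.32 in old and −3.70 ± 0.27 in DMSO mice. Rxra was at 118.8, 123.7, 116.0 and 114.7 CPM in young kidney and at 499.6, 682.9, 594.2 and 484.4 CPM in young liver. Its log2 fold change was −2.27 ± 0.15 in young, −2.42 ± 0.23 in old and −2.45 ± 0.10 in DMSO mice, and no kidney library reached a liver library. Rxrb differed little between the tissues, at −0.35 ± 0.15 in young (adjusted p = 0.0496), 0.15 ± 0.16 in old (adjusted p = 0.476) and −0.36 ± 0.09 in DMSO mice (adjusted p = 0.00396). Its call in young mice was lost, at adjusted p of 0.0511 to 0.142, in fits by DESeq2, with other size factors, with other filters, and with 1 library left out, which was replicate 1, 2 or 3 of young kidney or 1, 3 or 4 of young liver.

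Some of these directions depended on scaling. With scaling by the total count, the median gene was 1.16 higher on the log2 scale in young kidney than in young liver (1.12 in old and 1.06 in DMSO mice, against 0.08, 0.03 and 0.07), and 10444 genes were called higher and 1580 lower in young kidney, where the reported scaling gave 4941 and 4246. The counts were 9926 and 1334 against 4394 and 3608 in old mice, and 11406 and 1715 against 5791 and 4974 in DMSO mice. On that scale Hnf4a was at 0.57 in young, 0.38 in old and 0.10 in DMSO mice, and Rxrb was at 0.73 in young and 0.63 in DMSO mice, above 0 and below the median gene, whereas Rxrb in old mice was at 1.23, above the median gene. Ppara was then at −0.23 and Pparg at −0.37 in young mice, and at −0.56 and −0.61 in old mice, and did not pass (adjusted p = 0.3, 0.189, 0.143 and 0.0635). Rxra and Rxrg kept their direction and their call. Offsets for length and GC content put Ppard at −0.06 in young and 0.24 in old mice, neither past the test, and Rxrb at −0.67 in old mice (adjusted p = 0.000966).

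Genes whose pattern over the 10 group means was most like that of each member were found among 14504 genes by Pearson's r of log2(CPM + 1), given as a description over 10 points, several of which share a tissue. Rdh16 was among those most like Hnf4a (r = 0.999), and Sdr42e1 and Hs3st3b1 were most like Rxra (0.999 for both). A1cf (0.998) and Acsm5 (0.997) were most like Ppara, and Trabd (0.994) and Lrg1 (0.993) most like Rxrg. Bccip (0.985) was among those most like Pparg. Fam83g (0.991) and Stxbp5l (0.988) were most like Hnf4g. The likeness was lowest for Rxrb, with Rfxap (0.955) and Zfp623 (0.942), and for Ppard, with Zbtb45 (0.949) and Ddx55 (0.944).

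ATAC-seq detects open chromatin, and a peak is given here by its fold enrichment over the local background of its library, as MACS2 computed it. Each of the 8 genes had a peak within 1000 bases of a start site in all 6 kidney libraries and in all 6 liver libraries, beside 58.2% of 24534 genes in kidney and 52.5% in liver. The P2 promoter of Hnf4a, whose sequence is given above, was the exception among the first start sites of the members. It had a peak in all 6 liver libraries and in none of the 6 kidney libraries. The fold enrichment there was 6.11, 5.76 and 4.8 in young liver and 1.92, 4.36 and 3.15 in old liver, so that the old libraries were all below the young ones. This was not tested, and the share of promoters that separate in this way was not counted. The highest promoter peak of Hnf4a, over all its start sites, overlapped between young and old liver.

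The P1 promoter of Hnf4a, with start sites between chr2:163546817 and 163547188, was open in all 12 libraries. The fold enrichment there was 3.89, 2.61 and 2.29 in young kidney, 2.3, 5.04 and 4.43 in old kidney, 3.77, 3.29 and 2.8 in young liver and 2.65, 2.96 and 4.88 in old liver. The 4 groups overlapped. Another start site, chr2:163550083, had a peak within 1000 bases in all 6 kidney libraries (1.86 to 4.21) and in none of the liver libraries. In 5 of those 6 kidney libraries a peak covered the start site, and in replicate 3 of young kidney it lay at chr2:163551014-163551407.

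**Figure D4:**
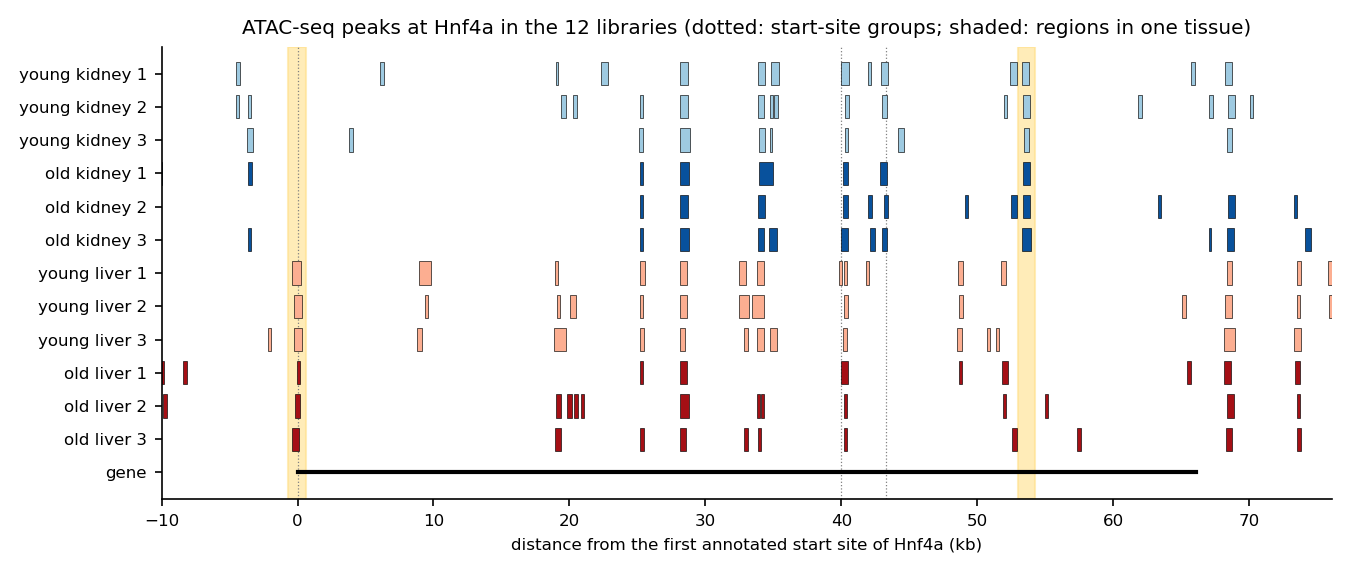
ATAC-seq peaks across Hnf4a in each of the 12 libraries, by distance in kilobases from its first start site; boxes are peaks at their width, coloured by group, dotted lines are start sites, the black line is the gene, and yellow bands, drawn slightly wider than the regions, mark regions seen in every library of 1 tissue and none of the other. The band at distance 0, the P2 promoter, holds peaks in the 6 liver libraries only, and the band downstream holds peaks in the 6 kidney libraries, with a peak of old liver replicate 3 beside the region.

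Among the merged peak regions within a member or 10000 bases of it, 288 in all, 2 had a peak in every kidney library and none in liver, beside 1.6% of 481669 regions, and 1 had a peak in every liver library and none in kidney, beside 0.534%. The kidney regions were chr2:163560110-163560750 in the gene body of Hnf4a, with a fold enrichment of 4.34 ± 1.25 (SD, n = 6), and chr3:3581623-3582053 in the gene body of Hnf4g, at 4.39 ± 1.54 (n = 6). These are the regions whose summit sequences hold the HNF1 and AP-1 matches. The liver region was chr2:163506427-163507150 at the P2 promoter of Hnf4a, at 4.35 ± 1.59 (n = 6). For age, 2 of 179 kidney regions had a peak in every young and no old library (in Ppard, at 2.04 ± 0.15, and in Rxra, at 2.58 ± 0.06, SD, n = 3), beside 1.52% of all regions, and none the reverse, beside 0.323%. In liver, 1 of 232 regions was seen in every young and no old library (Hnf4a, 3.01 ± 0.36), beside 0.985%, and 1 in every old and no young library (Rxra, 2.69 ± 0.62), beside 0.543%. The region of Rxra seen in young kidney held an AP-1 match in its summit window, and the others held none of the 5 motifs. The counts of regions held by 1 side only were not stable. With 1 library left out they numbered 2 to 7 for age in kidney, 3 to 11 for age in liver and 3 to 6 between tissues.

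The highest promoter peak of each gene was compared by an exact two-sided permutation test of its log2 fold enrichment, for 8 genes in each comparison. The p-values are not adjusted unless this is said. Between the ages the exact test cannot go below p = 0.1 with 3 libraries against 3. That smallest p was reached in kidney by Hnf4g and Pparg and in liver by Ppara. Adjusted over the 8 genes, the permutation p was 0.4 for Hnf4g and for Pparg and 0.32 for Ppara. A p of 0.1 here marks groups that do not overlap, and the share of all promoters that separate in this way was not counted. Hnf4g was at 12.75, 8.86 and 8.13 in young kidney and at 4.58, 7.9 and 8.09 in old kidney, a log2 difference of −0.55. Pparg was at 5.92, 5.1 and 5.2 in young kidney and at 2.73, 4.21 and 4.08 in old kidney, a log2 difference of −0.58, with the highest peak at the first start site in 3 of these 6 libraries and at chr6:115422066 in the others. Ppara was at 3.58, 3.12 and 4.2 in young liver and at 3.12, 2.37 and 2.89 in old liver, and its log2 difference was −0.38.

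Between kidney and liver, with 6 libraries against 6, the smallest p the permutations can give is 0.00216. Rxra and Ppara reached it, both with higher enrichment in kidney, by 0.93 and 0.62 on the log2 scale. The highest promoter peak of Rxra lay at an internal start site, chr2:27740201, in 10 of the 12 libraries and at the first start sites in replicate 2 of young kidney and of young liver. Its fold enrichment was 7.04, 5.21 and 5.7 in young kidney and 5.34, 6.2 and 5.88 in old kidney, against 3.44, 2.21 and 3.69 in young liver and 4.27, 2.64 and 2.7 in old liver. The transcript of both genes was higher in liver, the tissue with the lower peak, on the reported scale. Pparg had a lower peak in kidney, by 0.55 (exact p = 0.00649), as its transcript did. The differences of Hnf4g (−0.47, p = 0.0519), Ppard (0.37, p = 0.0649), Rxrb (0.26, p = 0.143), Rxrg (0.28, p = 0.232) and Hnf4a (−0.29, p = 0.264) did not reach 0.05 in the exact test. The median fold enrichment over all peaks ran from 2.99 to 3.56 in kidney libraries and from 2.74 to 3.0 in liver libraries. The Rxrb start site lies 130 bases from a start site of Slc39a7 on the opposite strand, so its promoter peak is shared with that gene.

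**Figure D5:**
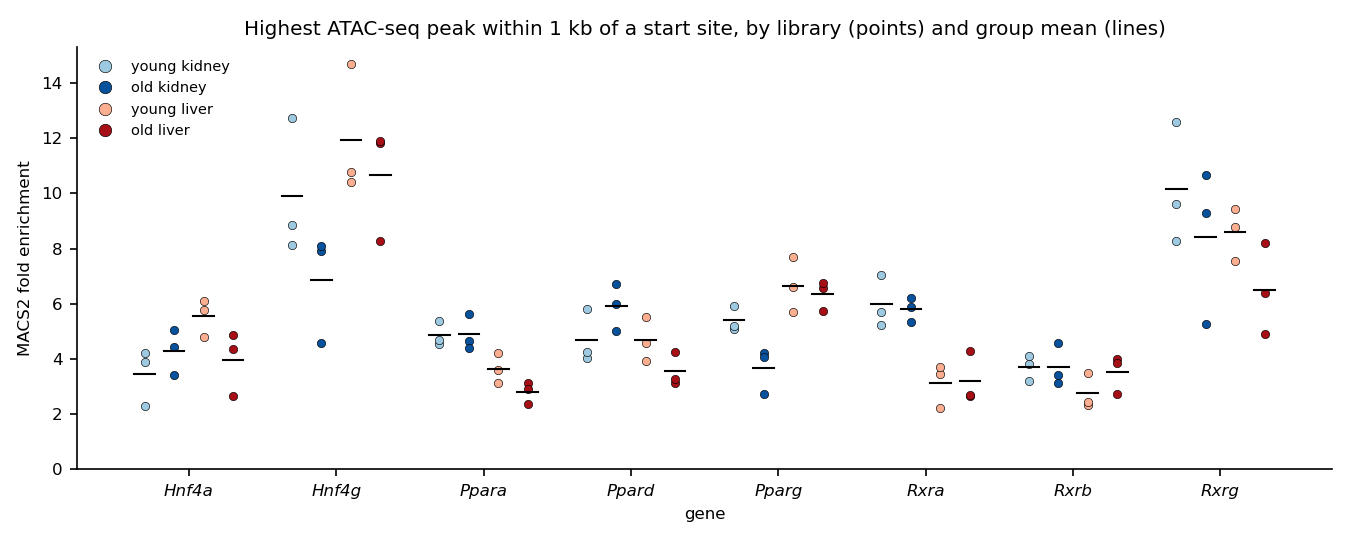
MACS2 fold enrichment of the highest ATAC-seq peak within 1000 bases of a start site of each gene, on a linear axis from 0; points are the 12 libraries, coloured by tissue and age, and lines are group means. The kidney points of Rxra and Ppara lie above their liver points, and the highest point of all is Hnf4g in young liver, at 14.69.

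An open promoter went with very different transcript levels. The Hnf4g start site had a mean fold enrichment of 11.95 ± 2.38 (SD, n = 3) in young liver, at the mean percentile of 99.6 among the peaks of those libraries, while the Hnf4g transcript was at 0.0878 to 0.451 CPM there. The P1 promoter of Hnf4a was at percentile 59.7 in young liver, with the transcript at 918.6 to 1175.7 CPM. The P2 promoter was also open there, with a higher fold enrichment than P1 in each library, and the counts do not separate the transcripts of the 2 promoters. The internal start site of Rxrg, chr1:167618309, was at 10.15 ± 2.2 in young kidney, with the transcript at 0.626 to 1.3 CPM.

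Genes that work with these receptors were taken as lists from general knowledge. The cell type markers that moved with age in kidney and in liver, given above, moved beside these lists too, and their part in the calls was not tested. Of 13 partners of RXR tested in kidney, 2 were higher and 1 lower in old mice, 23.1% beside 11.5% of all genes. Nr4a1, an orphan receptor induced by stimuli, was at 1.23 ± 0.28 (SE), Rarg, a retinoic acid receptor, at 0.58 ± 0.13, and Nr1h4, the bile acid receptor FXR, at −0.46 ± 0.11. In liver 1 of 11 partners passed (9.09%, beside 2.46% of all genes), and it was again Nr1h4, at −0.84 ± 0.18 (edgeR adjusted p = 0.0351), from 203.1, 174.9, 259.9 and 249.3 CPM in young to 125.2, 123.8, 103.9 and 138.2 CPM in old mice. The median log2 fold change of the partners was 0.20 in kidney and 0.08 in liver, where the medians of all genes were 0.02 and 0.0. Of 13 coregulators tested, 1 was lower in old kidney, Lpin1, a phosphatidate phosphatase that also coactivates PPAR-alpha (−0.68 ± 0.13), which is 7.69% of them, and none passed in old liver. Without replicate 2 of old kidney, a fit that called 23.7% of all genes, 8 of the 13 coregulators were lower and 5 of the 13 partners passed, with 4 higher and 1 lower. The other HNF genes, 3 tested in kidney and 7 in liver, gave no call with age, with medians of −0.23 and −0.30.

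Of 30 PPAR target genes tested in kidney, 1 was higher and 4 were lower in old mice, 16.7% beside 11.5% of all genes, and the median log2 fold change was −0.09, beside 0.02. Without replicate 2 of old kidney 1 was higher and 5 were lower, beside 23.7% of all genes. Slc22a5, the carnitine transporter, was at 302.6, 267.1, 321.5 and 285.6 CPM in young and 189.0, 194.5, 167.4 and 186.5 CPM in old kidney (−0.61 ± 0.11, edgeR adjusted p = 0.00777). Pdk4, a kinase that holds back glucose oxidation, was at −1.25 ± 0.30. The target that was higher, Fabp1, a fatty acid binding protein abundant in hepatocytes, was at 43.4 CPM in replicate 2 of old kidney, the library with hepatocyte markers, and at 8.03 to 12.7 CPM in the other old libraries, where young kidney had 2.46 to 5.73 CPM. In liver, 2 of 31 PPAR targets were higher, the fatty acid carrier Cd36 at 1.32 ± 0.20 and the lipase Lpl at 1.31 ± 0.25, none was lower (6.45%, beside 2.46% of all genes), and the median was −0.47. The 5 macrophage markers summed to 410.8 to 586.9 CPM in young and 730.5 to 1452.2 CPM in old liver, and their part in the values of Cd36 and Lpl was not tested.

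Of 16 HNF4A target genes tested in kidney, 2 were higher and 2 lower in old mice, 25.0% beside 11.5% of all genes, with a median of 0.37 beside 0.02. Replicate 2 of old kidney had 2567.3 CPM of hepatocyte markers, and 3 of the 7 markers, among them Ttr and Tat, are also HNF4A targets of the list. Without that library 2 were higher and 3 lower, beside 23.7% of all genes, and the median was 0.05, beside 0.03. Pck1, which catalyses the committed step of gluconeogenesis, was at 2722.6, 3875.5, 4376.8 and 3451.8 CPM in young and 1450.3, 1102.8, 1133.6 and 912.9 CPM in old kidney (log2 fold change −1.59 ± 0.18, edgeR adjusted p = 0.00104). Pklr, a pyruvate kinase, was at −0.54 ± 0.13, whereas the genes for protein C (Proc, 0.99 ± 0.19) and for apolipoprotein A-IV (Apoa4, 1.35 ± 0.35) were higher. In liver none of 22 passed, and the median was −0.30. Of the 11 retinoid genes in kidney 4 were higher and none lower, 36.4% beside 11.5% of all genes, with a median of 1.11. Without replicate 2 of old kidney 5 were higher and 1 was lower, with a median of 1.03. Aldh1a1 and Aldh1a2, which make retinoic acid, were at 1.96 ± 0.23 and 1.78 ± 0.25, and Aldh1a1 went from 11.7 to 15 CPM in young to 28.5 to 60.2 CPM in old kidney. In liver 1 of 8 passed (12.5%, beside 2.46%), Cyp26a1, which degrades retinoic acid, at 1.96 ± 0.38.

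The interaction of age and tissue passed for 1.72% of all genes. Lpl (−2.56 ± 0.44) and Cd36 (−1.14 ± 0.26) had a lower age effect in kidney than in liver, and Aldh1a1 (2.37 ± 0.42) had a higher one. Without replicate 2 of old kidney Cd36 no longer passed, at −1.04 ± 0.27 (edgeR adjusted p = 0.076). With 3C, none of these list genes passed in kidney or liver, as no gene did. In fibroblasts 1 coregulator of 10 was higher (Ncoa3, 0.62 ± 0.14), beside 4.22% of all genes in either direction, 1 PPAR target of 26 was higher (Lpl, 1.28 ± 0.26) and 2 were lower (Angptl4, a lipase inhibitor, at −0.93 ± 0.15, and Plin2, a lipid droplet coat protein, at −0.54 ± 0.12). The 2 of 7 retinoid genes called there were lower, the retinoic acid carrier Crabp2 (−1.52 ± 0.25) and Cyp26b1 (−0.88 ± 0.19), and none of 11 RXR partners or 2 HNF4A targets passed. The macrophage, smooth muscle and skeletal muscle markers given above were lower in every 3C culture than in any DMSO culture, and their part in these calls was not tested.

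The lists were also compared between kidney and liver of young mice, where 65.4% of all genes passed. Members of several lists were near 0 in either tissue and entered this fit through the other alone, such as the HNF4A target Tat, at a mean of 0.00931 CPM in young kidney, and the vitamin D receptor Vdr, at 0.0564 CPM in young liver. No count or median is therefore given for those lists, and 3 of the 22 HNF4A targets are also among the hepatocyte markers used to check the tissue labels. The 13 coregulators were all tested within each tissue too, and 69.2% of them passed, 7 higher and 2 lower in kidney. Ppargc1a, a coactivator of mitochondrial genes, was at 3.04 ± 0.30 on the log2 scale, Nr0b2 at −4.90 ± 0.22 and Lpin1 at −1.86 ± 0.17. Of the RXR partners tested within both tissues, the thyroid hormone receptor Thra was at 1.46 ± 0.14, and Nr1i2, the xenobiotic receptor PXR, at −3.90 ± 0.17. Among the HNF4A targets, Pck1 and G6pc, genes of gluconeogenesis named after their values were seen, did not pass between the tissues. Pck1 was at −0.18 ± 0.18 and G6pc at −0.47 ± 0.20, with edgeR adjusted p of 0.416 and 0.0566.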

How the data were processed

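The members and the gene lists were chosen with earlier results of these data known. Per the study's methods, the authors used Trimmomatic 0.39 for trimming of RNA-seq reads, HISAT2 2.2.1 for alignment (mm10) and HTSeq 0.12.4, with strand ignored, to count reads per gene. The deposited files hold 1 raw count per gene, and tallies that name no gene were left out. For ATAC-seq, the authors aligned with Bowtie2 2.3.5.1, removed duplicates, and called peaks with MACS2 in each library. The deposited peak files give each peak's position, its fold enrichment and its −log10 q. Nothing in these files gives the read depth of the ATAC-seq libraries. Coordinates are GRCm38, the assembly of mm10.

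Levels are CPM (counts-per-million) scaled by edgeR's TMM factors over the 38 RNA libraries, per kilobase of the union of exons where genes were compared. Each comparison was tested on the libraries of its own groups by edgeR 4.0.16's quasi-likelihood test in R 4.3.3, after a filter on low counts (filterByExpr, minimum count 10), with Benjamini-Hochberg adjustment over all genes tested and a threshold of 0.05. The age and 3C effects of the tissues were compared by an interaction term. DESeq2 1.42.0 was an alternative. A promoter peak lay within 1000 bases of an annotated start site, and its log2 fold enrichment was compared by an exact permutation test (scipy 1.17.1). Figures used matplotlib 3.10.9. The fits were tested on simulated data with known changes.

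All 8 members were named in every comparison. From each list up to 2 genes per direction were named, those with the smallest p among those past the threshold, and 2 genes per member by likeness. Alternatives were other size factors, filters, DESeq2, a fold threshold, offsets for length and GC content, the replicate number as a block, each library left out in turn, and, chosen after seeing the data, total count scaling and, for the gene lists, old kidney without replicate 2. No duplicates were found among the 54 pairs of RNA libraries within groups, and other pairs were not compared. For same-numbered libraries, the deviations from their group means correlated at 0.12, 0.219, 0.104 and 0.452 between young kidney and young liver. Replicate 2 of young liver correlated more with another young kidney library, at 0.241. Between 3C kidney and 3C liver the values were 0.128, 0.194, 0.085 and 0.096, each the highest for its kidney library. Whether same-numbered libraries of 2 tissues shared an animal was not given in the labels. A few genes that this rule would name are not reported here.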

Additional observations from a re-analysis of the deposited data

Results flagged for a closer look

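In groups of 4 to 10 libraries, the gap of the highest or lowest library from its nearest neighbour was compared with the range of the group by Dixon's criterion, which chance passes in about 1 in 20 groups. Of 64 groups, 4 passed. Ppara was lowest in replicate 3 of DMSO liver at 163.7 CPM, with the other 3 libraries at 181.8 to 183.8 CPM. Ppard was lowest in replicate 1 of 3C liver at 9.87 CPM, the library with the clock gene levels described above, with the others at 96.7 to 109.8 CPM. Pparg was lowest in replicate 2 of old liver at 12.2 CPM, where the others had 18.5 to 19.3 CPM. Rxrb was highest in replicate 4 of young kidney at 63.2 CPM, where the others had 46.2 to 48.7 CPM.

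The interaction of age and tissue for Hnf4g was −2.43 ± 0.57 on the log2 scale (edgeR adjusted p = 0.0407). Hnf4g had 1 to 6 counts per young liver library and was too low to be tested in liver alone, so that it entered this fit through its kidney counts and no difference between the tissues is drawn from it. The call was lost with the replicate number as a block (−2.36 ± 0.58, edgeR adjusted p = 0.0948) and with scaling by the total count (−2.41 ± 0.63, edgeR adjusted p = 0.0827).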

How the results depend on the processing

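Over all settings, 1183 of 1284 alternative values of single members in the RNA comparisons kept their direction and their side of the threshold, 51 lost the threshold, 9 gained it and 41 changed direction. For promoter peaks 238 of 264 kept both. In old against young kidney 1 member passed when a fold change was also asked and 5 passed by DESeq2, and 0 to 4 passed with 1 library left out. DESeq2 called 1 member with 3C in kidney and 1 in liver. In young kidney against young liver 5 members passed with the fold change. The age by tissue interaction called 0 members with total count scaling, 0 with the replicate block, and 0 to 1 with 1 library left out. Regions at members held by 1 side only numbered 1 for age in kidney, 5 for age in liver and 1 between tissues at a −log10 q of at least 5, and 5 for age in liver when each library kept its 93072 strongest peaks. With 1 library left out they numbered 2 to 7, 3 to 11 and 3 to 6.

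Total count scaling, chosen after seeing the data, moved the median gene in kidney against liver from 0.08 to 1.16 in young, 0.03 to 1.12 in old and 0.07 to 1.06 in DMSO mice. By that shift Hnf4a (0.57 in young, 0.38 in old and 0.10 in DMSO mice), Rxrb (0.73 in young and 0.63 in DMSO mice) and Ppard in DMSO mice (0.80) came to lie above 0 and still below the median gene. They are among the values counted as changed in direction. Rxra in liver was at 0.01 for age and −0.01 for 3C, where the median gene was at 0.07 and −0.03. Offsets for length and GC content changed the direction, without and with the replicate block, for Rxra with 3C in kidney (0.03 and 0.03), Rxrb with 3C in liver (0.10 and 0.09), Ppard in young kidney against liver (−0.06 and −0.04) and Rxrb in old kidney against liver (−0.67 and −0.67). The cause was not tested.

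With 1 library left out, the log2 value ranged for age from −0.13 to 0.30 for Pparg in kidney and from −0.18 to 0.07 for Rxra in liver. For 3C it ranged from −0.23 to 0.05 for Pparg in fibroblasts, from −0.43 to 0.30 for Ppard and −0.05 to 0.04 for Rxra in kidney, and from −0.43 to 0.18 for Ppard, −0.06 to 0.08 for Rxra and −0.07 to 0.05 for Rxrb in liver. Ppard ranged from −0.68 to 0.05 in DMSO kidney against liver, from −0.18 to 0.36 for age by tissue and from −0.38 to 0.51 for 3C by tissue.

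For promoter peaks, the sum over promoter peaks gave −0.69 for Ppard and 0.09 for Rxra with age in kidney, 0.08 for Ppard and 0.05 for Pparg with age in liver, and −0.28 for Rxrb between tissues. Percentiles among the peaks of a library gave differences of 1.90 for Rxra and 1.75 for Rxrb with age in kidney, 0.55 for Pparg with age in liver and −1.40 for Rxrg between tissues. With 1 library left out the log2 difference ranged from −0.10 to 0.08 for Ppara, −0.13 to 0.09 for Rxra and −0.18 to 0.10 for Rxrb in kidney, and from −0.26 to 0.01 for Hnf4g, −0.17 to 0.05 for Pparg and −0.19 to 0.18 for Rxra in liver.

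The replicate block changed no member's call between young kidney and young liver, where all 8 passed with it. The labels link libraries of different groups by nothing but a number. With the block 2 members passed for age in kidney (Hnf4g at adjusted p = 0.0595 by edgeR), and Hnf4a did not pass in old kidney against old liver (0.0791). Counts of 1 to 6 per library limit Hnf4g in young liver, levels of a few CPM limit Rxrg in kidney, and 3 libraries per group limit the peak comparisons by age.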
